A study of Mus musculus with 9 samples.

Results

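The comparison described here set 3 ventricles of mice carrying dominant-negative forms of phosphoinositide 3-kinase (dnPI3K) against 3 ventricles of non-transgenic mice (NTG), so it uses 6 of the 9 arrays of the study. The arrays were chosen by their titles alone. The third group, 3 mice carrying a constitutively active PI3K (caPI3K), entered the same model to steady the estimate of the spread, and its values are given beside some genes. Per the labels, wild-type littermates had hearts that dnPI3K animals undershot in size by 17% and caPI3K animals exceeded by 20%, and the tissue was ventricle only. Total RNA of each animal was read on 1 array. The labels give no promoter for the transgenes, no line or founder, and no age, sex or strain, and they do not say whether the NTG mice are the littermates of either line. The published mice of these names express their transgene from the alpha myosin heavy chain promoter, which is active in cardiac myocytes. Whole ventricle also holds vessels, fibroblasts and blood cells, so fewer cells of a type and less RNA per cell cannot be told apart.

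Class I PI3K is the lipid kinase that passes the signal of the insulin and IGF1 receptors to Akt. A regulatory subunit of the p85 type holds a catalytic p110 subunit, is recruited to phosphorylated IRS adaptors, and the lipid product draws Akt to the membrane. In the heart the pathway is known for setting organ and myocyte size during growth and with exercise, and Akt keeps FoxO transcription factors out of the nucleus.

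In dnPI3K ventricle the transcripts of the regulatory subunit Pik3r1 and of the lipid metabolism receptor Ppara fell to 21.0% and 28.9% of the NTG mean. Of 17 fetal and stress genes, a list drawn up with earlier results of these data known, 4 were called, all higher. Among them were Myh7 at 2.68-fold, Tpm2 at 3.09-fold and Ccn2 at 2.61-fold. The skeletal muscle type calsequestrin Casq1 fell to 28.0%. All 6 of these genes kept their call in 9 refits that each left out 1 array (leave-outs). For each, all 3 dnPI3K arrays lay beyond all 3 NTG arrays, as they did for 19.1% of all probe sets in either direction. The 6 are among the genes of largest change, for which non-overlap was a condition, so this separation adds no support. Of 10645 probe sets tested, 232 (2.18%) were called, 108 higher (1.01%) and 124 lower (1.16%), at an adjusted p under 0.05 in limma with Benjamini-Hochberg adjustment over all probe sets tested. The p-values rest on a spread between animals that was estimated from all 9 arrays, caPI3K included, and drawn toward that of other probe sets. With 1 array per animal, this spread also holds array noise. Unadjusted p was under 0.05 for 1577 probe sets. The median log2 fold change over all tested probe sets was 0.0033. Of the calls, 106 changed by at least 1 on the log2 scale, 46 upward and 60 downward. With arrays scaled to the same median in place of quantile normalization the split turned to 135 higher and 93 lower, so the balance of directions depended on the scaling.

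**Figure D1:**
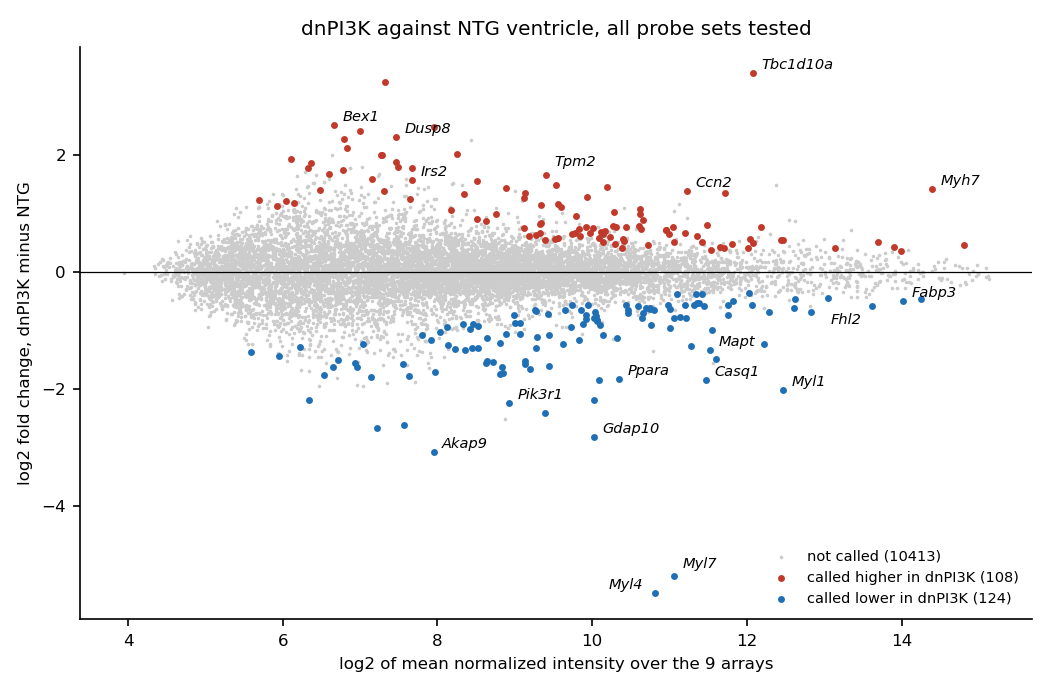
Log2 fold change (dnPI3K minus NTG, vertical axis) against the log2 of the mean normalized intensity over the 9 arrays (horizontal axis), 1 point per tested probe set. Red points are the 108 probe sets called higher and blue points the 124 called lower. Myl4 and Myl7 lie lowest of all named genes, and Myh7 is called at the bright end of the array.

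Intensities below are normalized values on a linear scale. Values under 35.3, the 20th percentile, were raised to that floor before the logarithm, so a fold change that reaches the floor is understated. Errors after ± are SD over n = 3 arrays, and SE belongs to the log2 fold change. Where replicates are listed after "without", each was left out alone. Where a gene had several probe sets, the brightest one stands for it: by that rule 75 of 7478 genes (1%) were higher and 91 (1.22%) lower. Counts of called genes in the lists below stand beside these shares. Genes of largest change were named only if their groups did not overlap, so separation adds no support for them. The lists were drawn up with earlier results of these data known, so their counts of calls and signs are descriptions only.

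The dnPI3K arrays stood apart in their controls. The geometric mean of 9 spike-in probe sets was 1591 to 2012 on the dnPI3K arrays and 2618 to 3356 on the NTG arrays (exact permutation p = 0.1, two-sided, the smallest that 3 against 3 allow). The 18S 3′ probe set read 3265 to 8567 against 450.5 to 671, and the 18S 5′ probe set, whose groups overlapped, 147 to 435 against 62.6 to 166. The 3′ to 5′ ratio of Gapdh was 0.81 against 0.85 and that of Actb 1.34 against 1.22. The dnPI3K animals carry numbers 1294 to 1451 and the NTG animals 2819 to 3119, so number series and group cannot be told apart, and the part of these differences in the results was not tested. Listed markers of ventricular myocytes, among them Myl2, Myl3 and Actc1, were bright in both groups. The 7 measured markers summed to 184493 to 196516 in dnPI3K and 186780 to 205672 in NTG, with none called. Most of them lie at the top of the intensity range, where quantile normalization gives every array the same set of values. Near-equal sums were thus largely set by the normalization and cannot show equal myocyte content. No endothelial (11 tested), fibroblast (12), leukocyte (16), erythroid (4), adipocyte (7) or nerve marker (5) was called by its brightest probe set in limma, and the unadjusted p was under 0.05 for 3 fibroblast markers, 1 nerve marker and 0 of the others. Among smooth muscle markers 1 of 7 rose (Acta2), and among conduction and valve markers 1 of 5, Cpxm2, at a log2 fold change of 1.02 (adjusted p = 0.034). This Cpxm2 call was lost without dnPI3K replicates 2 and 3 or NTG replicates 1, 2 and 3, while a second Cpxm2 probe set, nearly as bright, was called at a log2 fold change of 1.45 (adjusted p = 0.00057) and held in all 9 leave-outs.

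At the ligand and adaptor end of the pathway 2 of 15 measured genes were called. Irs2, the adaptor that couples the insulin receptor to PI3K and a known FoxO target, read 158, 149 and 107 on the NTG arrays and 343, 491 and 398 on the dnPI3K arrays. Every dnPI3K array was above every NTG array, and the caPI3K arrays at 49.1, 44.4 and 91.5 lay below both groups (log2 fold change 1.58, SE 0.33, adjusted p = 0.04). Igf2, a growth factor of the insulin family, fell, with means of 2056 ± 122 in NTG and 1349 ± 249 in dnPI3K (log2 fold change -0.62, SE 0.14, adjusted p = 0.045). Both calls were fragile: Irs2 kept its call in 2 of the 9 leave-outs (lost without dnPI3K replicates 1, 2 and 3 or NTG replicates 1, 2 and 3 or caPI3K replicate 1, adjusted p up to 0.15) and Igf2 in 1 (lost without dnPI3K replicates 1 and 2 or NTG replicates 1, 2 and 3 or caPI3K replicates 1, 2 and 3, up to 0.14). The related adaptor Irs1 was at a log2 fold change of 0.96 (adjusted p = 0.19) and the receptor Igf1r at -0.43 (adjusted p = 0.17). The median log2 fold change of the 15 genes was 0.11, against 0.0073 over all genes.

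Of the PI3K subunits, 4 were measured. Pik3r1, which encodes p85 alpha, read 542, 817 and 759.7 on the NTG arrays and 123, 162 and 161 on the dnPI3K arrays. The groups were far apart, and the caPI3K arrays stayed in the NTG range or close to it at 661, 482 and 683. The log2 fold change was -2.24 (SE 0.22, adjusted p = 0.00057) and ran from -2.43 to -2.11 over the leave-outs. The catalytic subunits Pik3ca (log2 fold change 0.34, adjusted p = 0.54) and Pik3cd (log2 fold change 0.15, adjusted p = 0.92) and the regulatory subunit Pik3r2 (log2 fold change 0.04, adjusted p = 0.98) did not pass the test. The Pik3ca probe set may or may not lie in the transgene, so it checks nothing about the labels.

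The Pik3r1 promoter is shown because this was the pathway gene with the largest fall. The sequence is the 250 bases before 1 of the 2 start sites that RefSeq lists (GRCm38.p6, chr13:101692631-101692880, minus strand, 5′ to 3′ along the gene). Capitals mark a TATA box match (TATAAA, on the opposite strand, beginning 117 bases before the start) and an MCAT match (CATTCC, on the opposite strand, 17 bases before it). MCAT is the element read by TEAD factors.
Pik3r1: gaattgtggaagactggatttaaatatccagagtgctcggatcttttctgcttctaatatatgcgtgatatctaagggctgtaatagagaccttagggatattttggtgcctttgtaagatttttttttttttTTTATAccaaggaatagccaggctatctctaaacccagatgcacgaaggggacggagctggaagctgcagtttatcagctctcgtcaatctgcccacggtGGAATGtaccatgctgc

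Downstream of PI3K, 8 of the 9 measured genes for Akt and its regulators were above 0 (median log2 fold change 0.25), where 51.0% of all genes were, and 1 was called. Akt2, the Akt isoform best known for insulin action, read 1079, 1244 and 1149 on the NTG arrays and 1782, 1940.1 and 1460.2 on the dnPI3K arrays. The groups did not overlap, but the difference was modest (log2 fold change 0.57, SE 0.12, adjusted p = 0.035) and was lost without dnPI3K replicates 1 and 2 or NTG replicates 1, 2 and 3 or caPI3K replicates 1, 2 and 3 (adjusted p up to 0.14). Akt1 was at a log2 fold change of 0.58 (adjusted p = 0.12), without a call. None of the 12 Akt targets (GSK3, mTOR and FoxO branches) was called by its brightest probe set in limma, and 4 had an unadjusted p under 0.05. A dimmer probe set of Eif4ebp2, a translation repressor under mTOR, was called lower at a log2 fold change of -1.72, while its brightest was at 0.04 (adjusted p = 0.90). Foxo3 was at a log2 fold change of 0.76 (adjusted p = 0.18) and Mtor at 0.36 (adjusted p = 0.25). Among 20 genes known to be switched on by FoxO, Irs2 was the one called (median log2 fold change 0.09), and Cdkn1b (log2 fold change 0.65, adjusted p = 0.32) was not. Outside these lists, Snrk, an AMPK-related kinase, and Phlda1, a small pleckstrin homology protein, both rose. They were named for the size of their change. Snrk read 504, 666 and 834 on the NTG arrays and 1649, 1565 and 1585 on the dnPI3K arrays (log2 fold change 1.29, SE 0.19, adjusted p = 0.0075), and Phlda1 read 181, 265 and 241 on the NTG arrays and 571, 658 and 785 on the dnPI3K arrays (log2 fold change 1.56, SE 0.22, adjusted p = 0.0072). Both calls held in all 9 leave-outs. Non-overlapping groups were a condition for naming these genes, so their separation adds no support.

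**Figure D2:**
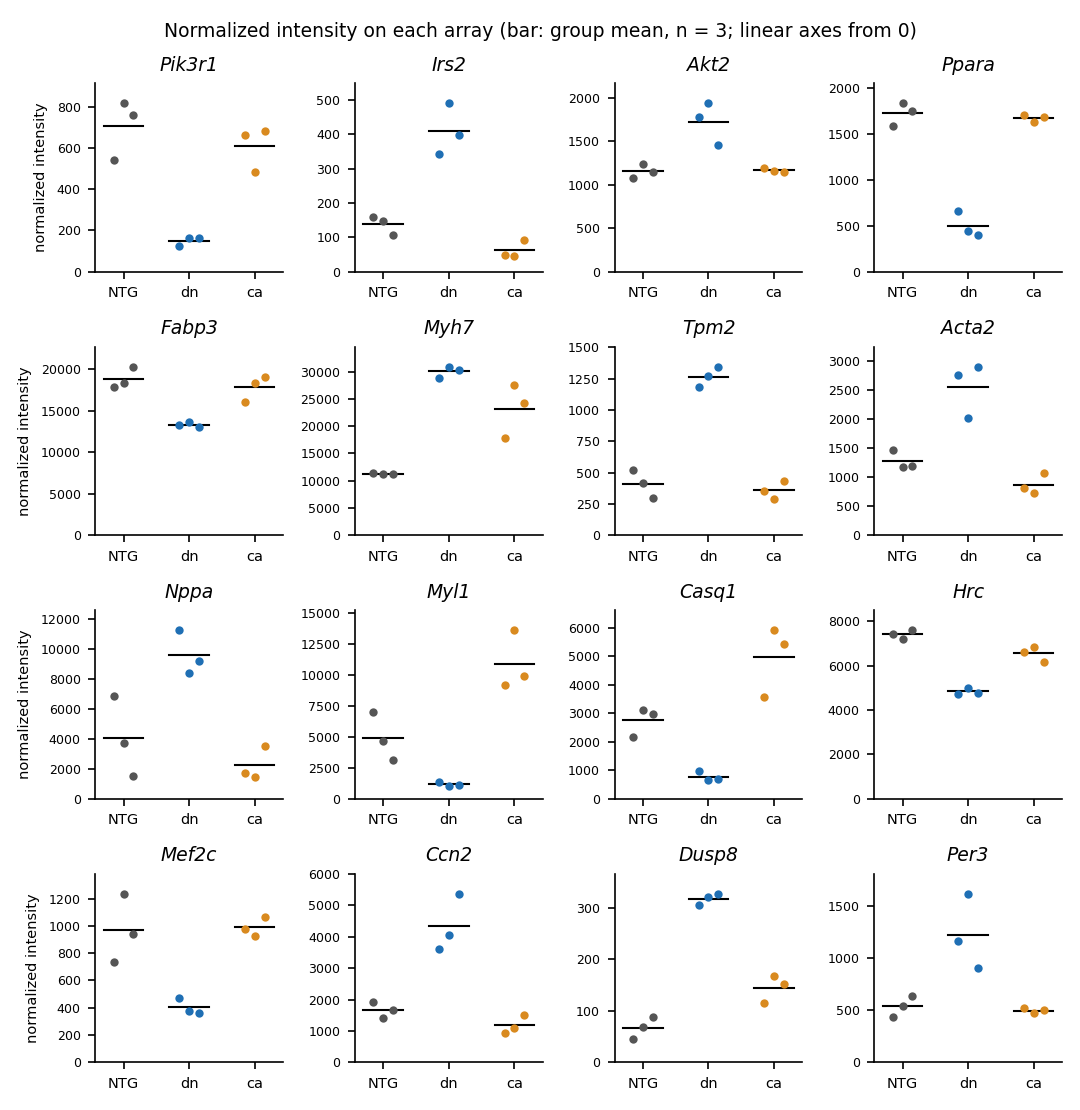
Normalized intensity (vertical axes, linear from 0) of 16 genes on each array of NTG, dnPI3K (dn) and caPI3K (ca) ventricle. Points are single arrays and bars are group means. The dnPI3K arrays lie outside the NTG range in all 16 panels, and Nppa is the one panel whose difference was not called.

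In energy metabolism the receptor Ppara, which switches on genes of fatty acid uptake and oxidation, changed most. It read 1593, 1838 and 1756 on the NTG arrays and 663, 439 and 399.7 on the dnPI3K arrays. The dnPI3K arrays were all below the NTG arrays (log2 fold change -1.82, SE 0.17, adjusted p = 0.00057), and the caPI3K arrays at 1706, 1633 and 1683 lay within the NTG range. Nrip1, a corepressor of nuclear receptors, was the other called gene of 15 in its list, at 431 ± 24.5 in NTG and 231 ± 36.8 in dnPI3K (log2 fold change -0.91, SE 0.19, adjusted p = 0.042, lost without dnPI3K replicates 1, 2 and 3 or NTG replicates 1, 2 and 3 or caPI3K replicates 2 and 3). Ppard was at a log2 fold change of -1.31 (adjusted p = 0.1) and the thyroid hormone receptor Thra at -0.23 (adjusted p = 0.37).

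Among 29 tested genes of fatty acid uptake and oxidation 22 were below 0 (median log2 fold change -0.19), 2 were called lower and none higher. Fabp3, which carries fatty acids through the myocyte cytosol, read 17831, 18352 and 20258 on the NTG arrays and 13317, 13566 and 13067 on the dnPI3K arrays. All dnPI3K values were lower, and the mean fell to 70.8% of NTG (log2 fold change -0.50, SE 0.09, adjusted p = 0.019). The isomerase Eci2 fell to 64.6% of NTG (log2 fold change -0.63, SE 0.11, adjusted p = 0.019). Fabp3 lost its call without dnPI3K replicates 1, 2 and 3 or NTG replicate 2 (adjusted p up to 0.074), and Eci2 without dnPI3K replicates 1 and 2 or NTG replicate 2 (up to 0.082). The medium-chain dehydrogenase Acadm was at a log2 fold change of -0.43 (adjusted p = 0.092), the acylcarnitine carrier Slc25a20 at -0.50 (adjusted p = 0.061) and the electron transfer flavoprotein Etfa at -0.40 (adjusted p = 0.092), all short of the threshold. In this list 10 genes had dnPI3K arrays wholly below the NTG arrays and none wholly above, where 19.1% of all probe sets were separate in either direction. Such counts were not particular to this list. Among 55 oxidative phosphorylation genes 16 were wholly below and 3 wholly above, and among 18 MAP kinase pathway genes 2 and 8.

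Further lipid and energy genes, chosen after their values were seen, were called lower outside that list. These were the phosphatidate phosphatase Lpin1 (log2 fold change -0.56, adjusted p = 0.035), the peroxisome protein Pex11a (log2 fold change -0.67, adjusted p = 0.03), the acyl-CoA binding protein Dbi (log2 fold change -0.53, adjusted p = 0.025), the coenzyme Q biosynthesis gene Coq9 (log2 fold change -0.46, adjusted p = 0.046), the mitochondrial creatine kinase Ckmt2 (log2 fold change -0.46, adjusted p = 0.034) and the glutathione transferase Mgst3 (log2 fold change -0.44, adjusted p = 0.013). Each lost its call in some leave-outs, Lpin1 and Coq9 in all but 1 of the 9. The ATP synthase inhibitor Atpif1 rose from 3839.8, 4016 and 3560.1 to 5789, 6999.7 and 6693 (log2 fold change 0.77, SE 0.10, adjusted p = 0.0039), and the coenzyme Q binding protein Coq10a rose from 3957, 3627 and 3314 to 5222, 5398 and 5490.3 (log2 fold change 0.57, SE 0.08, adjusted p = 0.0077). Those 2 held in all 9 leave-outs, and their groups did not overlap. The adiponectin receptor Adipor2 was higher at a log2 fold change of 0.68 (adjusted p = 0.034), a call lost without dnPI3K replicates 2 and 3 or NTG replicates 2 and 3 or caPI3K replicate 1. The creatine transporter Slc6a8, a member of the solute carrier list (1 of 20 called), read 1237, 1069 and 1608 on the NTG arrays and 2227, 2219 and 2202 on the dnPI3K arrays (log2 fold change 0.79, SE 0.14, adjusted p = 0.018), and lost its call without dnPI3K replicates 1, 2 and 3 or NTG replicates 1 and 2.

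Glucose uptake and glycolysis (22 genes), the citric acid cycle (20), oxidative phosphorylation (55) and antioxidant defence (30) had no called member by brightest probe set in limma. Their counts with an unadjusted p under 0.05 were 4, 2, 15 and 5. Of the oxidative phosphorylation genes 37 were below 0 and 18 above, with a median log2 fold change of -0.09. The glucose transporter Slc2a1 was at a log2 fold change of 1.49 (adjusted p = 0.095).

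**Figure D3:**
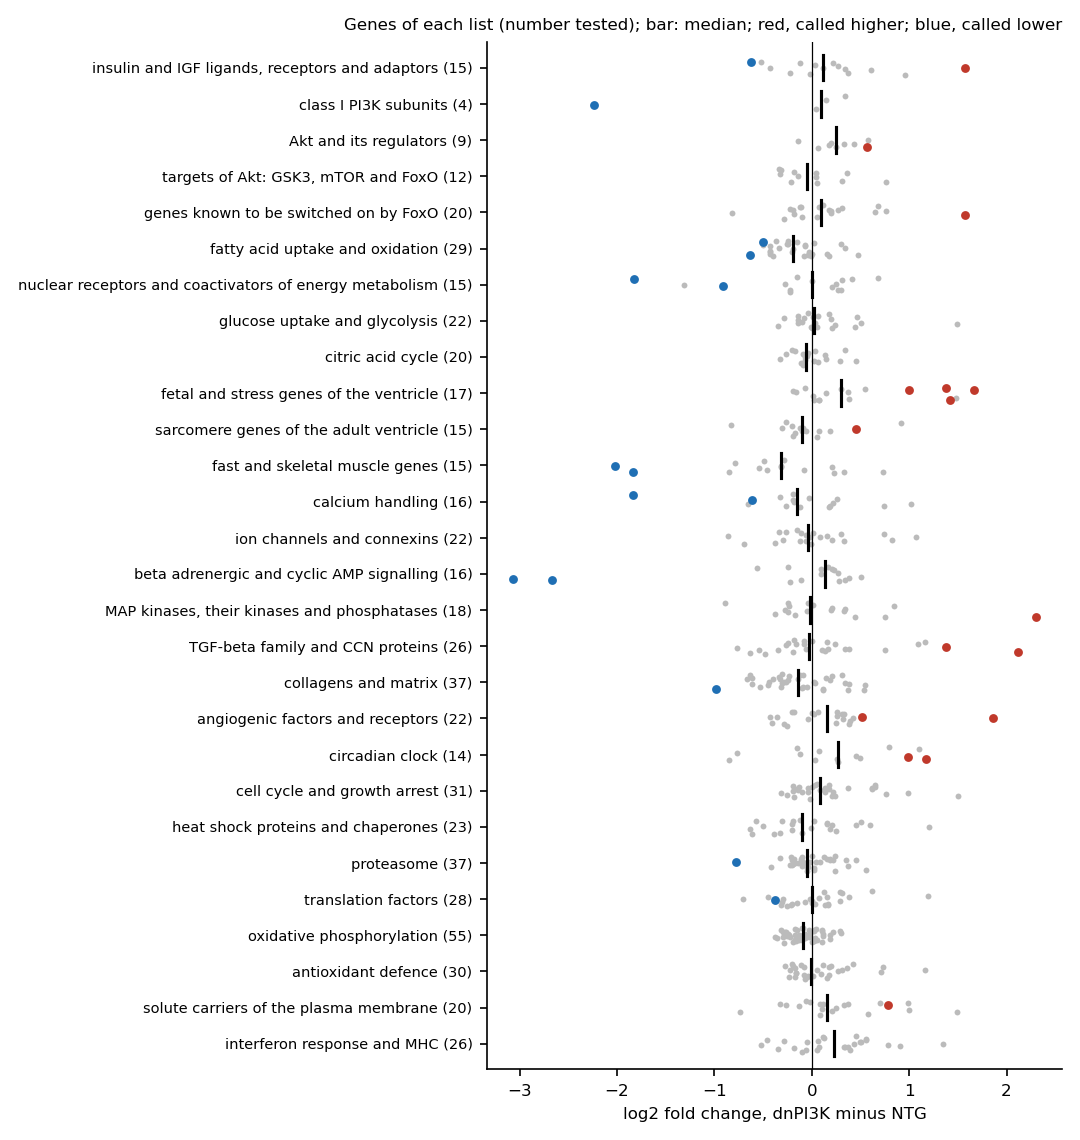
Log2 fold change (dnPI3K minus NTG, horizontal axis) of each tested gene in 28 lists, with the number tested in brackets. Black bars are list medians, red points were called higher and blue points lower. The medians stay between -0.31 and 0.30, and no list has more than 4 called members.

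Contractile genes included several calls that held in every leave-out. In the list of fetal and stress genes of the ventricle 14 of 17 were above 0 (median log2 fold change 0.30), against 51.0% of all genes, and 4 were called, all higher: Myh7, Tpm2, Acta2 and Ccn2. The list was drawn up with earlier results of these data known, and the naming rule singles out Myh7, Tpm2 and Ccn2. These counts are therefore descriptions only. Log2 fold changes in the list ran from -0.19 to 1.66, and 7 of its genes had an unadjusted p under 0.05 in limma. Myh7, the beta myosin heavy chain that mouse ventricle uses before birth, read 11309, 11146 and 11187 on the NTG arrays and 28858, 30859.6 and 30302 on the dnPI3K arrays. The NTG arrays agreed closely and the dnPI3K arrays were all far above them (log2 fold change 1.42, SE 0.13, adjusted p = 0.00057). On the caPI3K arrays Myh7 read 17831, 27516 and 24309.8, also above NTG. A dimmer Myh7 probe set was called too, at 2.0 (SE 0.44, adjusted p = 0.044). Both Myh7 probe sets have names ending in f_at, which the maker uses where probes may match related genes of a family, so a share from other myosin heavy chains cannot be told apart. Tpm2, beta tropomyosin, read 519, 414 and 296 on the NTG arrays and 1179, 1269.9 and 1343 on the dnPI3K arrays, with caPI3K at 353, 288 and 431. Its groups did not overlap (log2 fold change 1.66, SE 0.21, adjusted p = 0.0039). A much dimmer Tpm2 probe set had the opposite sign and was not called, at 74.8 ± 7.51 in NTG and 46.5 ± 34.0 in dnPI3K (log2 fold change -0.65, adjusted p = 0.50). Acta2, smooth muscle actin, is expressed by fetal myocytes and by vessel walls. It read 1457, 1169.8 and 1188 on the NTG arrays and 2749, 2021 and 2894 on the dnPI3K arrays. Every dnPI3K array was above NTG (log2 fold change 1.0, SE 0.18, adjusted p = 0.018), and the gene lost its call without dnPI3K replicates 1 and 3 or NTG replicate 2 (adjusted p up to 0.072).

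The summed level of 8 smooth muscle markers was 6782 to 7877 in dnPI3K and 5483 to 6158 in NTG. Besides Acta2, Myh11 was at a log2 fold change of 0.61 (adjusted p = 0.31), Tagln at 0.23 (adjusted p = 0.53) and Mylk at -0.21 (adjusted p = 0.47), none called. The part of vessel cells in the Acta2 change was not tested.

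The Myh7 and Acta2 promoters are shown together because both genes rose and both hold the MCAT element. The sequences are the 250 bases before the RefSeq start (GRCm38.p6, Myh7 at chr14:54994627-54994876 and Acta2 at chr19:34255374-34255623, both on the minus strand, 5′ to 3′ along the gene). Capitals mark CATTCC on the opposite strand, 201 bases before the Myh7 start and 146 before that of Acta2.
Myh7: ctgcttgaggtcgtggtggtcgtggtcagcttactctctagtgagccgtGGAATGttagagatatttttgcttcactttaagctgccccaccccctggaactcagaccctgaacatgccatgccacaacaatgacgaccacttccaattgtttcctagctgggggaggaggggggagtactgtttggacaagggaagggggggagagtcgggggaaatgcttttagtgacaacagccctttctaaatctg
Acta2: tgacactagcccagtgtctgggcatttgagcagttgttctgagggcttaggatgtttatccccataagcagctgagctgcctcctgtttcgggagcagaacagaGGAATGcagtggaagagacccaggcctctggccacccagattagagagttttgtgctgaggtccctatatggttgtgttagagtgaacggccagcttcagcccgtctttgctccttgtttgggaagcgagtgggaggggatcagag
Searched on both strands, CATTCC was in 14.7% of 32851 RefSeq promoters and in 14.95% of 5978 tested genes with a promoter entry. It was in 12 of the 62 genes called higher that had an entry (19.4%) and in 11 of 78 called lower (14.1%). A match is a description of the letters only. TATAAA was in 11.4% of tested genes, in 3 of 62 called higher and in 16 of 78 called lower (20.5%).

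The natriuretic peptides did not pass the test, although no dnPI3K value overlapped NTG. Nppa read 6840.4, 3744 and 1553 on the NTG arrays and 11231, 8414 and 9192 on the dnPI3K arrays (log2 fold change 1.48, SE 0.46, adjusted p = 0.15). Nppb read 7333, 9392 and 8957 on the NTG arrays and 12219, 12172 and 12904 on the dnPI3K arrays (log2 fold change 0.55, SE 0.15, adjusted p = 0.095). The wide NTG spread of Nppa ran in the same order of arrays as that of the atrial light chains Myl4 and Myl7. Myl4 read 6896, 3669 and 223 on the NTG arrays and 27.9, 49.7 and 36.1 on the dnPI3K arrays, and Myl7 read 7253, 4703 and 315 on the NTG arrays and 36.5, 142 and 42.2 on the dnPI3K arrays. NTG replicates 1 and 2 were high and NTG replicate 3 was low, and all dnPI3K arrays were lower still. The calls for Myl4 (log2 fold change -5.48, adjusted p = 0.04) and Myl7 (log2 fold change -5.19, adjusted p = 0.048) were both lost without dnPI3K replicates 1, 2 and 3 or NTG replicates 1 and 2 or caPI3K replicates 1 and 2, with adjusted p up to 0.13 and 0.16. The 10 measured atrial markers summed to 3424 to 24063 on NTG arrays and to 10116 to 12666 on dnPI3K arrays, and 2 of 9 tested were called, both lower. Nppa made up most of the sum on the dnPI3K arrays, where Myl4 and Myl7 were low. Without Myl4 and Myl7 the sums were 2886 to 9914 in NTG and 9924 to 12601 in dnPI3K. Sln was on the floor on all NTG arrays, and the part of atrial tissue in the ventricle samples was not tested.

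Of 15 sarcomere genes of the adult ventricle 1 was called: Mybpc3, cardiac myosin binding protein C, at 25679 ± 2372 in NTG and 35231 ± 1957 in dnPI3K (log2 fold change 0.46, SE 0.09, adjusted p = 0.034). That call depended on quantile normalization. The change was 0.12 (adjusted p = 0.66) on the deposited scale and 0.20 (adjusted p = 0.49) with arrays scaled to the same median, and it was also lost without dnPI3K replicates 1, 2 and 3 or NTG replicates 1 and 2. Myom1 was at a log2 fold change of -0.31 (adjusted p = 0.066) and Actn2 at -0.83 (adjusted p = 0.091).

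Of 15 fast and skeletal muscle genes tested 2 were called, Myl1 and Casq1, both lower. By sign alone 4 of the 15 were above 0, against 51.0% of all genes, and the median log2 fold change was -0.31. Myl1, an essential light chain of fast skeletal muscle, read 6977, 4689.7 and 3158 on the NTG arrays and 1349, 1011 and 1132 on the dnPI3K arrays. The groups did not overlap, and the caPI3K arrays at 9234, 13606 and 9917 lay above both (log2 fold change -2.02, SE 0.25, adjusted p = 0.0033). Casq1 read 2153, 3117 and 2983 on the NTG arrays and 981, 651 and 683 on the dnPI3K arrays, with caPI3K at 3560.1, 5909 and 5428. It too was separate between dnPI3K and NTG (log2 fold change -1.84, SE 0.22, adjusted p = 0.0027). The summed level of 13 skeletal myocyte markers was 4032 to 4929 in dnPI3K, 8855 to 12401 in NTG and 15487 to 22270 in caPI3K. Myl1 and Casq1 carried most of that difference, and without them the other 11 summed to 2217 to 2599 in dnPI3K, 2714 to 3865 in NTG and 2693 to 2798 in caPI3K. Myh1 and Myh2, the adult fast myosin heavy chains, were at or under the floor on every array of all 3 groups. Atp2a1 was at a log2 fold change of -0.85 (adjusted p = 0.35) and Pvalb at -0.46 (adjusted p = 0.3).

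Of 16 calcium handling genes 2 were called, Casq1 and Hrc, where 1% of all genes were called higher and 1.22% lower. Casq1 is also counted among the fast and skeletal muscle genes. Hrc, which binds calcium in the lumen of the sarcoplasmic reticulum, read 7413, 7215 and 7582 on the NTG arrays and 4711, 5011 and 4782 on the dnPI3K arrays. The fall was small beside that of Casq1 but the arrays within each group were close (log2 fold change -0.61, SE 0.07, adjusted p = 0.0031). Slc8a1, the sodium-calcium exchanger, was at a log2 fold change of -0.32 (adjusted p = 0.2). None of 22 ion channel and connexin genes was called in limma, and 0 had an unadjusted p under 0.05.

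Several muscle regulators outside the lists were called, and were chosen after their values were seen. The transcription factor Mef2c read 739, 1233 and 937 on the NTG arrays and 474, 379 and 365 on the dnPI3K arrays (log2 fold change -1.23, SE 0.18, adjusted p = 0.0075). The LIM protein Fhl2 read 13067, 14968 and 13995 on the NTG arrays and 9427, 9489 and 9280.5 on the dnPI3K arrays (log2 fold change -0.57, SE 0.08, adjusted p = 0.0072). The methyltransferase Smyd2 read 499, 490.5 and 490.4 on the NTG arrays and 942, 1115 and 1159 on the dnPI3K arrays (log2 fold change 1.11, SE 0.13, adjusted p = 0.0019). Mef2c and Fhl2 were lower and Smyd2 higher on every dnPI3K array, and all 3 calls held in the 9 leave-outs. Nfatc3, a calcineurin-responsive factor, was lower at a log2 fold change of -0.97 (adjusted p = 0.019), Wwtr1, the TEAD coactivator TAZ, at -1.10 (adjusted p = 0.014), and Cdh2, the cadherin of the intercalated disc, at -0.57 (adjusted p = 0.035). Nfatc3 was lost without dnPI3K replicates 1 and 2 or NTG replicates 1 and 2, Wwtr1 without dnPI3K replicates 2 and 3, and Cdh2 in all but 2 leave-outs.

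In cyclic AMP signalling 2 of 16 genes were called, both lower. Akap9, which anchors protein kinase A and other enzymes, read 359.9, 288 and 375 on the NTG arrays and 27.3, 53.1 and 14.2 on the dnPI3K arrays. Among the dnPI3K arrays 2 were under the floor (log2 fold change -3.07, SE 0.28, adjusted p = 0.00057). Crhr2, the urocortin receptor of the heart, read 211, 258 and 208 on the NTG arrays and 26.9, 34.4 and 33.3 on the dnPI3K arrays. All dnPI3K values were under the floor, so the fall is given as at least 6.36-fold (adjusted p = 0.022), and the call was lost without dnPI3K replicates 1, 2 and 3 or NTG replicates 1 and 2. A dimmer Crhr2 probe set had the opposite sign and was not called, at 64.5 ± 20.9 in NTG and 75.9 ± 29.9 in dnPI3K (log2 fold change 0.19, adjusted p = 0.88). The protein kinase A inhibitor Pkia (log2 fold change -0.91, adjusted p = 0.012) and the G protein subunit Gna13 (log2 fold change -1.05, adjusted p = 0.017), chosen after their values were seen, were lower as well. Pkia was lost without NTG replicate 2 and Gna13 without dnPI3K replicates 2 and 3 or NTG replicate 2.

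Of 18 MAP kinase pathway genes Dusp8, a phosphatase of stress-activated MAP kinases, was the one called. It read 44.6, 68.7 and 87.2 on the NTG arrays and 305, 321 and 326 on the dnPI3K arrays. The dnPI3K arrays were nearly alike and all above NTG (log2 fold change 2.30, SE 0.30, adjusted p = 0.0045). The ERK phosphatase Dusp6 was at a log2 fold change of 0.75 (adjusted p = 0.067). Pim1, a kinase gene, was lower at a log2 fold change of -0.61 (adjusted p = 0.025) and was chosen after its values were seen. Its call was lost without dnPI3K replicates 2 and 3 or NTG replicates 1 and 2.

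The TGF-beta and CCN list had 2 called of 26, both higher. Ccn2, also called connective tissue growth factor, read 1914, 1399 and 1663 on the NTG arrays and 3611, 4039 and 5358 on the dnPI3K arrays, with caPI3K at 924, 1091 and 1520.0. The dnPI3K and NTG arrays did not overlap (log2 fold change 1.38, SE 0.20, adjusted p = 0.0072). Tgfb1 itself was dim and read 28.7, 37 and 59.9 on the NTG arrays and 136, 186 and 253 on the dnPI3K arrays (log2 fold change 2.12, SE 0.43, adjusted p = 0.035). Its call was lost without dnPI3K replicates 1, 2 and 3 or NTG replicates 1 and 2 or caPI3K replicate 2 and with the floor at the 40th percentile (0.72, adjusted p = 0.16). Ltbp4, which binds latent TGF-beta in the matrix, read 4987, 4913 and 5043 on the NTG arrays and 6919.8, 7618 and 7333 on the dnPI3K arrays (log2 fold change 0.55, SE 0.08, adjusted p = 0.0067), and was chosen after its values were seen.

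Of 37 collagen and matrix genes 1 was called, Col4a1, which was lower. By sign alone 13 of the 37 were above 0, against 51.0% of all genes, and the median log2 fold change was -0.15. Col4a1, the basement membrane collagen, read 3731, 3135 and 4159 on the NTG arrays and 2304, 1572 and 1737 on the dnPI3K arrays. Its groups did not overlap (log2 fold change -0.98, SE 0.15, adjusted p = 0.0082), while its partner Col4a2 was at -0.32 (adjusted p = 0.14). The brightest probe set of Col1a1 was at a log2 fold change of -0.44 (adjusted p = 0.32), and a dimmer one was called lower at -0.89 (adjusted p = 0.017). For Col3a1, a dim probe set was called lower at a log2 fold change of -1.07 (adjusted p = 0.0496, close to the threshold) while its brightest was at -0.62 (adjusted p = 0.40). Postn, made by activated fibroblasts, was at a log2 fold change of 0.54 (adjusted p = 0.3). No collagen was called higher in these samples, in which Ccn2 and Tgfb1 were. A link between these values was not tested.

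Matrix and growth factor genes chosen after their values were seen were called in both directions. The collagen receptor Ddr2 fell, at 574 ± 40.8 in NTG and 277 ± 47.6 in dnPI3K (log2 fold change -1.06, SE 0.17, adjusted p = 0.0095). The integrins Itgav (log2 fold change 0.71, adjusted p = 0.024) and Itgb5 (log2 fold change 0.74, adjusted p = 0.033) and the matrix protein Smoc2 (log2 fold change 0.67, adjusted p = 0.0067) rose, and the proteoglycan Ogn was lower at -0.61 (adjusted p = 0.047). The EGF receptor ligand Hbegf read 521, 563 and 579.8 on the NTG arrays and 324, 288 and 294 on the dnPI3K arrays (log2 fold change -0.88, SE 0.13, adjusted p = 0.0085). The Wnt receptor Fzd4 read 3223, 3242 and 2729 on the NTG arrays and 1594, 1138 and 1129.5 on the dnPI3K arrays (log2 fold change -1.27, SE 0.15, adjusted p = 0.0021). Hbegf and Fzd4 were lower on every dnPI3K array. Of these, Ddr2, Smoc2, Hbegf and Fzd4 held in all 9 leave-outs. Itgav was lost without dnPI3K replicates 1, 2 and 3 or NTG replicates 2 and 3, Itgb5 without dnPI3K replicates 1, 2 and 3 or NTG replicate 2, and Ogn in all but 1.

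Among 22 angiogenic factors and receptors 2 were called, both higher. Nrp1, a coreceptor for VEGF and class 3 semaphorins, read 1885, 1749 and 2162 on the NTG arrays and 2692, 2718 and 2828 on the dnPI3K arrays (log2 fold change 0.51, SE 0.09, adjusted p = 0.022). Sema3b, a class 3 semaphorin, was dim, at 38.4 ± 6.05 in NTG and 144 ± 17 in dnPI3K (log2 fold change 1.86, SE 0.31, adjusted p = 0.013), and with the floor at the 40th percentile it was no longer called. Nrp1 was lost without dnPI3K replicates 1, 2 and 3 or NTG replicates 1 and 2 and Sema3b without dnPI3K replicates 2 and 3 or NTG replicate 2. Vegfa was at a log2 fold change of 0.39 (adjusted p = 0.4) and its receptor Kdr at 0.42 (adjusted p = 0.43). The guidance factor Ntn1, chosen after its values were seen, was higher at a log2 fold change of 0.76 (adjusted p = 0.043) and was lost in all but 1 leave-out.

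In the circadian clock 10 of 14 genes were above 0 (median log2 fold change 0.27) and 2 were called, both of the repressor limb. Per3 read 431, 540.2 and 634 on the NTG arrays and 1161, 1609.8 and 899 on the dnPI3K arrays (log2 fold change 1.17, SE 0.21, adjusted p = 0.019). Cry1 read 313, 367 and 244 on the NTG arrays and 676, 542 and 601 on the dnPI3K arrays (log2 fold change 0.99, SE 0.19, adjusted p = 0.024). Neither gene's groups overlapped, and Per3 was lost without dnPI3K replicates 1 and 2 or NTG replicates 1 and 2 and Cry1 without dnPI3K replicates 1, 2 and 3 or NTG replicate 1. Per1 was at a log2 fold change of 1.10 (adjusted p = 0.42), Per2 at 0.79 (adjusted p = 0.39) and Nr1d1, the REV-ERB alpha receptor, at -0.85 (adjusted p = 0.055). The labels give no hour of collection, so its part in these values cannot be told apart from the group.

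The Cry1 promoter is shown because it is that of a called clock gene and holds both an E-box, the clock's own element, and the FoxO motif. The sequence is the 250 bases before the RefSeq start (GRCm38.p6, chr10:85185055-85185304, minus strand). Capitals mark GTAAACA, beginning 95 bases before the start, and CACGTG, 60 bases before it.
Cry1: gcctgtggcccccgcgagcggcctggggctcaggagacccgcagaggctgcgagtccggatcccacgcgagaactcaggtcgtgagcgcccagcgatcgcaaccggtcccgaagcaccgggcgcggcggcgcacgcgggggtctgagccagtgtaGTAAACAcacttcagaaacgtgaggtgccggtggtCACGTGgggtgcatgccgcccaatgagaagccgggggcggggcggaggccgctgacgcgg
On either strand GTAAACA was in 3.65% of all RefSeq promoters, in 3 of 62 called higher and in 3 of 78 called lower. CACGTG was in 7.15% of all promoters and in 11.6% of tested genes, and in 5 of 62 called higher and 10 of 78 called lower.

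Genes of transcription and RNA processing made up part of the largest falls. They are set together by their known roles after the values were seen, and no list was tested. Sf3a2 and Sf3b1 belong to the splicing complex SF3. Sf3a2 read 3962, 4903 and 3037 on the NTG arrays and 1897, 873 and 1638 on the dnPI3K arrays (log2 fold change -1.48, SE 0.26, adjusted p = 0.017), and Sf3b1 read 1088, 1155 and 1174 on the NTG arrays and 564, 576 and 414 on the dnPI3K arrays (log2 fold change -1.15, SE 0.15, adjusted p = 0.0038). The dnPI3K values of both were all lower, and Sf3a2 was lost without NTG replicate 2. A second Sf3a2 probe set, nearly as bright, read 2580 ± 95.5 in NTG and 2846 ± 346 in dnPI3K (log2 fold change 0.13, adjusted p = 0.58), so the Sf3a2 probe sets disagreed. A dimmer Sf3b1 probe set also had the opposite sign and was not called, at 229 ± 74.9 in NTG and 314 ± 51.5 in dnPI3K (log2 fold change 0.49, adjusted p = 0.50). The zinc finger factors Zfp148 (log2 fold change -1.51, adjusted p = 0.0081) and Sp1 (log2 fold change -1.53, adjusted p = 0.019), the chromatin remodelling subunit Smarcc1 (log2 fold change -1.29, adjusted p = 0.012), the Argonaute protein Ago2 (log2 fold change -1.66, adjusted p = 0.013) and the cohesin loader Mau2 (log2 fold change -1.32, adjusted p = 0.016) were lower as well. Of these Zfp148 and Smarcc1 held in all 9 leave-outs. Sp1 was lost without dnPI3K replicates 1 and 2, Ago2 without NTG replicate 2 and Mau2 without dnPI3K replicates 1 and 3. In the opposite direction Lsm2, an RNA-binding protein of the decay and splicing machinery, read 77, 89.1 and 56.3 on the NTG arrays and 223, 319.8 and 269 on the dnPI3K arrays (log2 fold change 1.88, SE 0.28, adjusted p = 0.0075). The transcription factor Cebpb was higher at a log2 fold change of 0.79 (adjusted p = 0.024), the repressor Rest lower at -1.24 (adjusted p = 0.039) and the RNA-binding protein Ybx1 lower at -0.68 (adjusted p = 0.008), all 3 chosen after their values were seen. Cebpb was lost without dnPI3K replicates 1, 2 and 3 or NTG replicates 1 and 2 and Rest without dnPI3K replicates 2 and 3 or NTG replicates 1, 2 and 3 or caPI3K replicates 1 and 2, while Ybx1 held in all 9.

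Other large changes were in genes of no list. Gdap10 had the smallest p of all named genes and read 1422, 1775 and 1502 on the NTG arrays and 198, 215 and 257 on the dnPI3K arrays (log2 fold change -2.81, SE 0.14, adjusted p = 6.4e-06). Mapt, the microtubule protein tau, read 3504, 3758 and 3442 on the NTG arrays and 1357, 1402 and 1513 on the dnPI3K arrays (log2 fold change -1.33, SE 0.09, adjusted p = 0.00011). Bex1 was on or near the floor in NTG and clearly measured in dnPI3K: it read 17.4, 36.8 and 70.7 on the NTG arrays and 259.6, 250.3 and 260.1 on the dnPI3K arrays (log2 fold change 2.51, SE 0.31, adjusted p = 0.0033), with caPI3K at 5.88, 9.09 and 5.6. These 3 held in all 9 leave-outs. Non-overlapping groups were a condition for naming Gdap10 and Bex1, so their separation adds no support. Tbc1d10a, a Rab GTPase activating protein, showed the largest rise of the named genes, with 1652, 1769.5 and 281 on the NTG arrays and 14894, 10824 and 5979 on the dnPI3K arrays (log2 fold change 3.40, SE 0.61, adjusted p = 0.019). It was lost without dnPI3K replicates 1 and 2, and a dimmer probe set of the gene was at a log2 fold change of 0.95 (adjusted p = 0.33). Frzb, a secreted Wnt antagonist, was higher at a log2 fold change of 1.75 (adjusted p = 0.028) and was lost without dnPI3K replicates 1 and 2 or NTG replicates 1, 2 and 3. B4galt6, a lactosylceramide synthase, was higher at 221 ± 7.32 in NTG and 559.6 ± 87.5 in dnPI3K (log2 fold change 1.33, SE 0.20, adjusted p = 0.0075).

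Protein quality and translation genes had few calls. Psme4, a proteasome activator, was the one called of 37 proteasome genes and read 2364, 2619.8 and 2319 on the NTG arrays and 1499, 1329 and 1435 on the dnPI3K arrays (log2 fold change -0.78, SE 0.10, adjusted p = 0.0041). Eef1d was the one called of 28 translation factors, at 3027 ± 147 in NTG and 2335 ± 108 in dnPI3K (log2 fold change -0.37, SE 0.08, adjusted p = 0.047), and was lost without dnPI3K replicates 1, 2 and 3 or NTG replicates 1 and 2 or caPI3K replicates 1, 2 and 3. None of 23 heat shock and chaperone genes was called in limma (8 had an unadjusted p under 0.05), while Dnajb6, a chaperone outside the list that was chosen after its values were seen, rose, at 1093 ± 25.1 in NTG and 1879 ± 206 in dnPI3K (log2 fold change 0.78, SE 0.10, adjusted p = 0.0043). Cell cycle genes (31) and interferon and MHC genes (26, of which 18 were above 0) had no call either, with 5 and 2 at an unadjusted p under 0.05. Over all 28 pathway and 11 cell type lists, 31 of 654 distinct tested genes were called, 15 higher and 16 lower, and 9 of the 28 pathway lists had no called member. The lists were drawn up with earlier results in view, so that share is not a result about heart genes.

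Genes with more than 1 tested probe set gave a check within the arrays. For 39 genes with a probe set called higher, 30 of 48 other probe sets had the same sign, 3 were also called, and their median log2 fold change was 0.30 against 0.84 for the called ones. For 44 genes called lower, 32 of 55 others had the same sign and 6 were also called, with a median log2 fold change of -0.11 against -1.09. No other probe set was called in the opposite direction. Among the others, 14 and 15 were brighter than the called probe set. None of those could be called, because the brightest called probe set of each gene was the one compared with the others. Wnk1, a kinase that controls ion transport, had 2 probe sets called lower (log2 fold changes -2.19 and -2.40) and a brighter one at -0.07 (adjusted p = 0.83). Lpl, the lipase that frees fatty acids at the vessel wall, had a probe set called lower at a log2 fold change of -1.23 and a brighter one at -0.04 (adjusted p = 0.94). Calls that rest on 1 dim probe set are thus calls on that probe set. Mapt, Mef2c, Myl4, Cpxm2, Clu and Myh7 had a second called probe set of the same sign. Another Mapt probe set, dimmer than both, had the opposite sign, at 613 ± 49.7 in NTG and 873 ± 56 in dnPI3K (log2 fold change 0.51, adjusted p = 0.14). Wwtr1 had a second probe set nearly as bright at a log2 fold change of -0.10 (adjusted p = 0.90), Dnajb6 a dimmer one at -0.13 (adjusted p = 0.74) and Nrp1 a dimmer one at -0.19 (adjusted p = 0.73). Dimmer probe sets of opposite sign, none called, were those of Fzd4 (log2 fold change 0.73, adjusted p = 0.36) and Mef2c (0.08, adjusted p = 0.89). Gna13 (0.11, adjusted p = 0.95) and Itgb5 (-0.16, adjusted p = 0.77) had such probe sets too. Another dim Fzd4 probe set was at -0.21 (adjusted p = 0.89), the sign of the call.

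**Figure D4:**
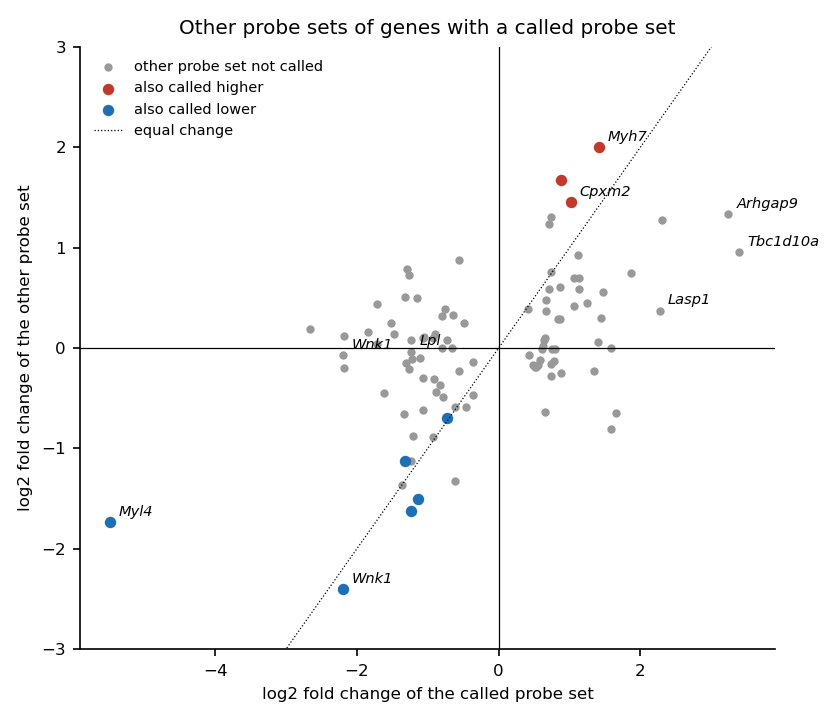
Log2 fold change of other tested probe sets (vertical axis) against that of the called probe set of the same gene (horizontal axis), 1 point per other probe set, with equal change as a dotted line. Coloured points are the 3 other probe sets also called higher and the 6 also called lower.

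The number of calls depended on single arrays. Leaving out a dnPI3K array left 82 to 109 calls, leaving out NTG replicate 1, 2 or 3 left 148, 95 or 235, and leaving out a caPI3K array left 151 to 159. Of the 232 calls 64 (27.6%; 23 higher and 41 lower) were kept in all 9 leave-outs, and no call changed sign in any of them. Pik3r1, Ppara, Casq1, Myl1, Hrc, Mef2c, Fhl2, Fzd4, Sf3b1 and Akap9 are among the lower genes kept, and Myh7, Tpm2, Ccn2, Dusp8, Snrk, Smyd2, Atpif1 and Ltbp4 among the higher.

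**Figure D5:**
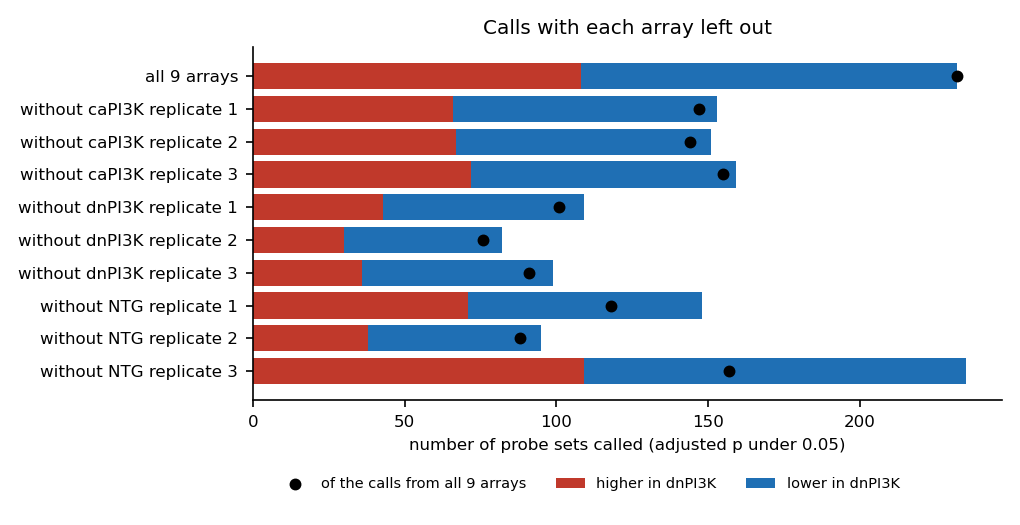
Number of probe sets called higher (red) and lower (blue) in dnPI3K with all 9 arrays and with each array left out (horizontal axis, counts). Black points count how many of the 232 calls from all arrays were called again. The counts run from 82 without dnPI3K replicate 2 to 235 without NTG replicate 3.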

How the data were processed

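RNA of 9 mouse ventricles was read on 9 one-colour oligonucleotide arrays, 1 per animal. The deposited table holds 1 linear intensity per probe set and array (12488 probe sets). The sources used here do not say how the authors arrived at the deposited intensity values, but the mean without the lowest and highest 2% was 500.4 on every array, so they had been scaled. Per the labels, the scanner's photomultiplier was set to 10%. The number of arrays limits the precision.

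Values were quantile normalized, floored at their 20th percentile (35.3) and then log2 transformed. Probe sets above the floor on at least 3 of 9 arrays were tested, and 66 control probe sets were left out. Groups came from the titles. All 9 arrays entered 1 linear model (lmFit, contrasts.fit and trended eBayes of limma 3.58.1, R 4.3.3) with the contrast dnPI3K minus NTG. P-values were two-sided and adjusted by the Benjamini-Hochberg method, threshold 0.05. The script was tested on simulated data. Replicates were numbered by accession, so the numbers pair nothing.

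Of the probe sets, 10855 carry 1 gene symbol, 396 several and 1237 none in the annotation used. Genes were named by this rule: up to 25 per direction with the largest change among called genes whose groups did not overlap; Pik3r1, Ppara, Myh7, Tpm2, Ccn2 and Casq1; measured PI3K subunits; and, per list, its called members and the next 3 or fewer by p. Other genes are said to be chosen after their values were seen. The members and lists were chosen with earlier results of these data known. Promoters are RefSeq's (GRCm38.p6). Other normalizations, floors, filters and moderations, and each array left out, were tried as alternatives.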

Additional observations from a re-analysis of the deposited data

Results flagged for a closer look

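Among the array control probe sets, which entered no comparison of genes, the 18S ribosomal RNA 3′ probe set had a mean of 6224 on the dnPI3K arrays against 536 ± 118 on the NTG arrays (SD, n = 3), and the 18S middle probe set a mean of 336 against 54.4 ± 13.5. Both were above every NTG and caPI3K array, and the exact permutation p of 0.1 is the smallest that 3 against 3 allow. The 18S 5′ probe set overlapped between the groups, at 147 to 435 on the dnPI3K arrays against 62.6 to 166 on the NTG arrays (exact permutation p = 0.2). What gave rise to these values was not tested.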

How the results depend on the processing

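No call changed sign under any of the 20 alternatives (the fit with NTG replicates 1 and 2 alone is the one without NTG replicate 3). The 232 calls (108 higher, 124 lower) came to 138 (60 and 78) with no filter on dim probe sets, 94 (37 and 57) with no intensity trend and 103 (46 and 57) with only the dnPI3K and NTG arrays in the fit, which leaves fewer arrays to estimate the spread. Leaving out single arrays gave 82 to 235 calls, 30 to 109 higher and 52 to 126 lower. The deposited scale, scaling to the same median, floors at the 5th and 40th percentile, only probe sets above the median, robust moderation, array weights and 1 probe set per gene stayed within 1.5 times, at 174 to 285. With medians equalized the higher calls made up 59.2% (135, against 93 lower), where they were 46.6%. For the 117 genes named with values, 374 alternatives lost a call and 17 gained one. Among 79 called, 34 kept the call in every leave-out and 23 in every alternative. The uncalled Pik3cd ran from -0.16 to 0.39 over the leave-outs, changing sign without NTG replicate 1. The uncalled Pik3r2 changed sign on the deposited scale (-0.0534), with the floor at the 40th percentile (-0.0318) and without dnPI3K or NTG replicate 2, running from -0.34 to 0.33 over the leave-outs. Where no construction is named, the cause was not tested. A scaling to the spike-in probe sets was not used. It would have shifted all probe sets alike, raising dnPI3K against NTG by the 0.74 on the log2 scale by which the spike-ins were lower. Lower calls of less than 0.74, among them Fabp3 (-0.50), Hrc (-0.61) and Fhl2 (-0.57), would then have changed sign. The statement that no call changed sign does not cover this scaling. On dim probe sets the floor limits the fold change: 13 probe sets called higher had an NTG array on the floor and 9 called lower a dnPI3K array. No paired analysis was possible because the labels give no replicate numbers that the groups share.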

Other observations

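The labels give no sex of the animals. Xist, the transcript made from the inactive X chromosome in female mice, read 1196, 1056 and 1364 on the NTG arrays, 865, 675 and 710.0 on the dnPI3K arrays and 1329, 1050.2 and 1216 on the caPI3K arrays. It was called lower in dnPI3K (log2 fold change -0.69, SE 0.14, adjusted p = 0.038 in limma). The Y-linked gene Kdm5d was under the floor on all 9 arrays, at 7.31 to 31.5. These genes were chosen after their values were seen.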
